A study of Glycine max with 42 samples.

Results

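The comparison described here is between depodded soybean leaves sampled on day 54 after planting and depodded leaves sampled on day 45, in the cultivar Williams 82. It rests on 6 of the 42 libraries of the series, 3 per day, which were chosen by their labels and by no measured value. Soybean (Glycine max) plants of this line had their pods removed, and RNA from their trifoliate leaves was sequenced in bulk. Control plants of the same line, with no removal of pods given in their labels, were sampled on the same days with 3 libraries per day, and 3 initial libraries were taken on day 38, at the R2 flowering stage. Later depodded and control libraries of Williams 82, labelled days 64 and 76, and sterile plants of line T295H on days 63 and 35 were used only to follow the genes that changed. The labels do not say when or how often pods were taken off, or how many plants went into a library.

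A filling pod is the main sink of a soybean plant: it draws sugars and nitrogen out of the leaves, which export what they fix and later break down their own protein to supply the seeds. When pods are taken away, soybean leaves are known to keep carbohydrate and nitrogen, to store part of the nitrogen as vegetative storage proteins in the vacuole, and to stay green for longer. A comparison of day 54 with day 45 within depodded plants asks what changed over 9 days in plants labelled as depodded. The same comparison within controls asks how much of that change also took place in plants not labelled as depodded.

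Levels are the normalised counts deposited by the authors, and changes are on the log2(normalised count + 1) scale, which understates the change of low genes. Of 38177 genes in the table, the 29208 whose average across the 27 Williams 82 libraries reached 10 were tested. A gene is said to have risen or fallen where limma gave a Benjamini-Hochberg adjusted p under 0.05. The gene IDs could not be paired with names or products, so genes are given by ID, and the leaf identity of the samples could not be checked against marker genes.

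The 6 depodded libraries held 7921575 to 12571103 counts. Within day 54 they were close to each other, with Pearson's r across genes of 0.944 to 0.962 between replicates. Within day 45, replicate 2 stood apart, with an r of 0.849 to replicate 1 and 0.84 to replicate 3, against 0.922 between replicates 1 and 3. The median SD of a gene over replicates was 0.265 on the log2 scale on day 54 and 0.455 on day 45, while in controls it was 0.334 on day 54 and 0.324 on day 45. The number of genes called and the counts of abundant genes are therefore also given without replicate 2, and other counts where it moves them by more than 1.5 times.

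**Figure D1:**
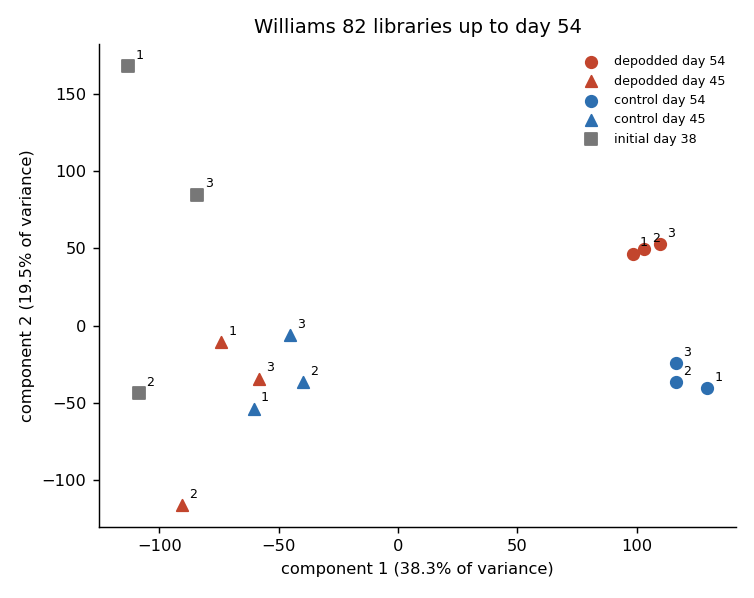
Principal components of log2(normalised count + 1) over the tested genes in the 15 Williams 82 libraries up to day 54, with the percentage of variance on each axis and each point numbered by replicate. Component 1, with 38.3% of the variance, separates the day 54 libraries, depodded and control, from all libraries of days 45 and 38, and depodded day 45 replicate 2 lies away from the other day 45 libraries on component 2.

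Depodded leaves differed widely between the days. On day 54, 5182 genes had risen and 5450 had fallen relative to day 45, together 36.4% of the genes tested. Of these, 3675 rose and 4207 fell by more than 1 on the log2 scale, and 985 rose and 1691 fell by more than 2. The median change of all genes was 0.03, which the authors' normalisation holds near 0 in every library. Without day 45 replicate 2, 4169 genes rose and 4528 fell. In bulk leaves, fewer cells of a type and less RNA per cell cannot be told apart.

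The libraries of the days did not overlap for 94.9% of the risen and 96% of the fallen genes, where 49.2% of all tested genes had no overlap. The risen genes held 30.4% to 31.7% of all normalised counts in the day 54 libraries, against 10.3% to 15.2% in the day 45 libraries. The fallen genes held 7.34% to 7.74% on day 54, against 20.8% to 31.8% on day 45, where the highest share was that of replicate 2. These shares describe the choice of the genes, which used the same values. Complete loss was rare: 23 fallen genes had no count in any depodded library of day 54, and 8 risen genes had none in any depodded library of day 45. Of those 23 genes, 12 had no count in any control library of day 54 either, and 0.188% of all tested genes had none there. Of those 8 genes, 0 lacked counts in all control libraries of day 45, where 0.127% of all tested genes did. With so few genes and so small a share, this 0 says little.

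By the rule for named genes, Glyma.06G174700 and Glyma.12G028300 rose most. Glyma.06G174700 had 67.7, 68.7 and 62.9 normalised counts on day 54, against 2.29, 0 and 0 on day 45. It was near absence in every depodded library of day 45 and at a like level in all 3 of day 54. The log2 change was 5.5 (SE 0.78, limma adjusted p 1.6e-05). The day 45 libraries held only 2 counts of it in all, so the ratio of 88.5 has a 95% counting interval of 15.5 to 3530, which covers counting error only. In controls the gene had 31.6, 27 and 26.6 on day 54, against 3.94, 1.79 and 22.3 on day 45, a log2 change of 2.1 (SE 0.78, adjusted p 0.048, limma). On day 45 the control and depodded libraries overlapped, and on day 54 all control libraries were lower than the depodded ones. Depodded minus control on day 54 did not pass the threshold (log2 difference 1.2, SE 0.78, adjusted p 0.49, limma). The difference of the changes was 3.4 (SE 1.1, adjusted p 0.28, limma).

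Glyma.12G028300 had 83.9, 66.2 and 74.7 normalised counts in depodded leaves on day 54, against 0, 0 and 5.12 on day 45. Its log2 change was 5.37 (SE 0.57, adjusted p 6.4e-07, limma). The controls of day 45 were all above the depodded leaves of that day, with 19.7, 14.4 and 29. Depodded minus control passed the threshold on day 45 (log2 difference -3.53, SE 0.57, adjusted p 0.029, limma). On day 54 it did not (0.91, SE 0.57, adjusted p 0.47, limma). In initial leaves of day 38, Glyma.12G028300 had 31.7, 13 and 35.8 and Glyma.06G174700 had 51.6, 2.6 and 41.7, so neither gene was absent at the start. In controls of day 54 Glyma.12G028300 stood at 54, 25.4 and 43.7, and its change of 0.92 there did not pass the threshold (adjusted p 0.24, limma). The difference between the changes, 4.45 (SE 0.81), had an adjusted p of 0.15 in limma.

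Glyma.05G186700 and Glyma.14G176300 fell most. Glyma.05G186700 had 1.61, 0 and 3.93 normalised counts on day 54, against 688, 1070 and 1620 on day 45, a log2 change of -8.82 (SE 1, adjusted p 1.4e-06, limma). All 3 libraries of day 54 were under the floor that 3 pairs of counts set, 4.84 to 7.36 normalised counts per library, so the gene was at the limit of detection. In controls it fell less far, to 46.5, 17.5 and 15.2 on day 54, against 539, 610 and 64.7 on day 45 (log2 change -3.52, SE 1, adjusted p 0.012, limma). The difference between those changes did not pass the threshold (adjusted p 0.24, limma).

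Glyma.14G176300 had 4.84, 0 and 3.93 normalised counts in depodded leaves on day 54, against 367, 5000 and 440 on day 45. Replicate 2 carried the day 45 mean, which was 1940 with it and 404 without it. The log2 change was -8.25 (SE 1.07, adjusted p 6.3e-06, limma), and the controls showed nearly the same one, -7.91 (SE 1.07). Control libraries held 3.72, 0 and 1.27 on day 54, against 569, 357 and 725 on day 45. The fall was thus seen in depodded and control leaves alike.

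The gene with the smallest p was Glyma.03G046400, which was singled out after its values were seen. It had 71, 78.5 and 45.2 normalised counts in depodded leaves on day 54, against 1080, 1480 and 1310 on day 45, a log2 change of -4.32 (SE 0.21, adjusted p 1.9e-11, limma). In controls it had 72.6, 79.5 and 83.7 on day 54, against 1010, 1030 and 786 on day 45. The replicates of a group lay close together in all 4 groups, and the fall was of the same order in both kinds of plant.

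**Figure D2:**
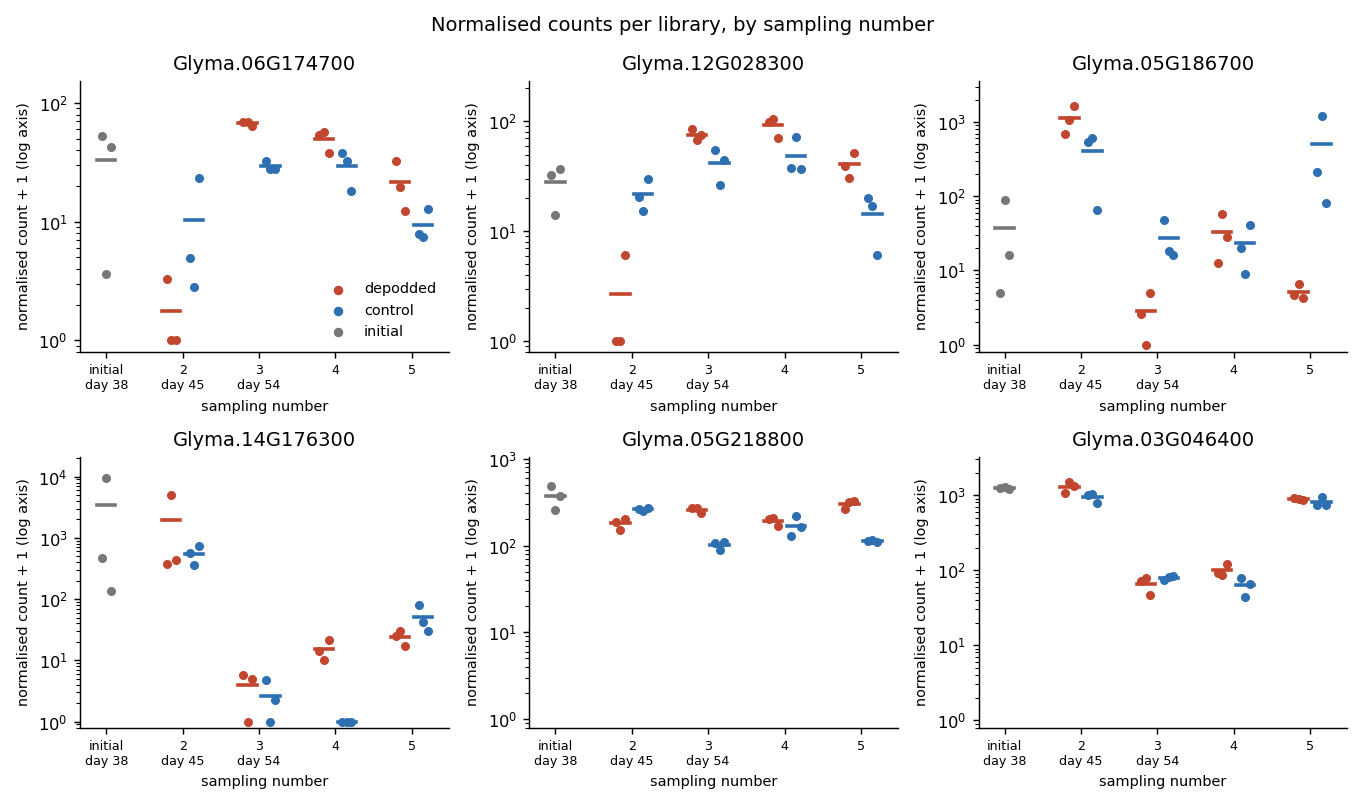
Normalised count + 1 (log axis) of 6 genes in each Williams 82 library, by the sampling number in the titles; points are libraries, bars are group means, and number 4 is control day 64 and depodded labelled day 76, number 5 control day 76 and depodded labelled day 64. Glyma.03G046400 was at 43.6 to 120 in all depodded and control libraries numbered 3 and 4 and at 746 to 1480 in all others.

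Control leaves changed over the same days too, and in the same direction for 91.8% of the risen and 94.9% of the fallen genes, where 75.3% of all genes had the same sign in both. In controls, 3636 genes were higher and 4349 lower on day 54 than on day 45, together 27.3% of the genes tested. These 6 control libraries are not those of the depodded comparison. Of the 5182 genes risen in depodded leaves, 2352 (45.4%) rose in controls as well and 5 fell, where 12.4% of all genes rose and 14.9% fell in controls. Of the 5450 genes fallen in depodded leaves, 3078 (56.5%) also fell in controls and 3 rose. As a share of each list, 51.1% of the genes called in depodded leaves and 68% of those called in controls were called in the same direction in the other.

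The size of the change was also read on genes chosen in the other kind of plant. The genes risen in depodded leaves had a median log2 change of 0.79 in controls (quartiles 0.42 and 1.19), and the fallen genes one of -1.04 (quartiles -1.7 and -0.56). The genes risen in controls had a median change of 1.01 in depodded leaves (quartiles 0.58 and 1.52), and those fallen in controls one of -1.28 (quartiles -2.07 and -0.72). The median of all genes was 0.03 in depodded and 0.02 in control leaves. Across the 29208 genes, the changes in depodded and control leaves gave a Pearson's r of 0.682 and a Spearman's rho of 0.659. The points share the libraries of each group, and genes are not independent replicates.

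The genes with the largest changes in controls show both sides of this. Glyma.07G212400 and Glyma.12G087200 fell most in controls, and both had no count in any library of day 54, depodded or control. Glyma.07G212400 had 207, 231 and 517 normalised counts in depodded leaves on day 45 and 905, 292 and 603 in controls on day 45. Against the mean floor of the day 54 libraries, it was at least 52.8-fold lower on day 54 in depodded leaves and at least 127-fold lower in controls. Glyma.12G087200 had 75.7, 401 and 292 in depodded leaves on day 45 and 303, 255 and 237 in controls. On day 54 it was at least 42.5-fold lower in depodded leaves and at least 56.1-fold lower in controls. Both genes also had no count in any of the later depodded libraries, while later controls held at most 11.2 and 3.47 normalised counts.

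Glyma.09G040500 and Glyma.18G127200 rose most in controls. Glyma.09G040500 rose in depodded leaves too, to 33.9, 36.8 and 15.7 normalised counts on day 54, against 2.29, 0 and 7.68 on day 45 (log2 change 3.2, SE 0.84, adjusted p 0.0052, limma). Controls held 61.4, 79.5 and 67.2 on day 54, against 0, 0 and 2.23 on day 45. The depodded libraries of day 54 were thus all below the control libraries of that day. This difference did not pass the threshold (log2 -1.32, SE 0.84, adjusted p 0.48, limma). Nor did the difference of the changes (-2.37, SE 1.19, adjusted p 0.42, limma).

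Glyma.18G127200 was not called in depodded leaves. It had 4.84, 7.36 and 21.6 normalised counts in depodded leaves on day 54, against 9.18, 261 and 2.56 on day 45, and replicate 2 alone was high on day 45. In controls it had 186, 105 and 716 on day 54, against 1.97, 3.59 and 8.93 on day 45, a log2 change of 5.56 (SE 1.13, adjusted p 9.4e-04, limma). The change in depodded leaves was -1.03 (SE 1.13, adjusted p 0.5, limma), and the difference of the changes, -6.59 (SE 1.6), had an adjusted p of 0.23. The gene was at 805 to 3920 in later controls and at 18.4 to 154 in later depodded leaves. These later depodded leaves were higher than the initial ones (log2 change 4.07, SE 0.98, adjusted p 0.0023, limma).

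**Figure D3:**
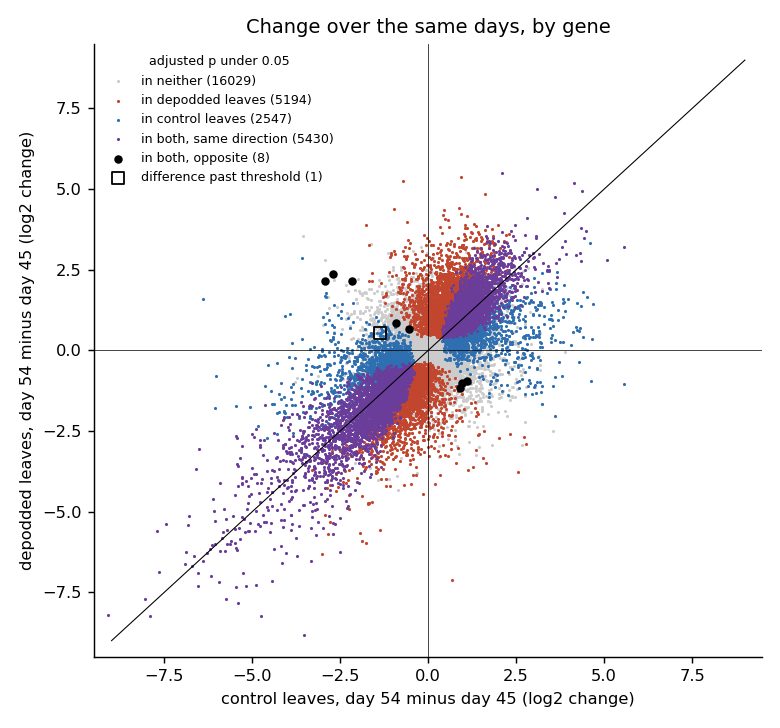
Log2 change of each tested gene from day 45 to day 54 in depodded leaves (vertical) against that in control leaves (horizontal), coloured by which comparison called it, with the line of equal change and the number of genes in each class. Of the genes called in both, 5430 lie in the quadrants of equal sign and 8 in those of opposite sign.

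Whether a change over these days differed between depodded and control plants was tested directly, as the difference of the changes. Only Glyma.05G218800 passed the threshold, 0.00342% of the genes tested, while 3623 genes (12.4%) had an unadjusted p under 0.05, where 1460 would by chance. EdgeR called 1 gene (3738 unadjusted) and DESeq2 193 (4233 unadjusted), 99 more positive and 94 more negative in depodded leaves. A change called in depodded leaves and not in controls, as for 2825 risen and 2369 fallen genes, was therefore not shown to differ between them. Set side by side by day, 257 genes (0.880%) differed between depodded and control leaves on day 54, 156 higher (0.534%) and 101 lower (0.346%) in depodded leaves. On day 45, 3 genes (0.0103%) differed, 1 higher (0.00342%) and 2 lower (0.00685%). These comparisons use the same libraries as the changes over time.

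Glyma.05G218800 had 269, 270 and 236 normalised counts in depodded leaves on day 54, against 188, 150 and 202 on day 45. In controls it had 106, 89 and 110 on day 54, against 266, 248 and 270 on day 45. Depodded leaves were thus below controls on day 45 and above them on day 54, with no overlap on either day. Tested by day, depodded minus control passed the threshold on day 54 (log2 difference 1.34, SE 0.21, adjusted p 0.0032, limma). On day 45 it did not (-0.54, SE 0.21, adjusted p 0.38, limma). The fall in controls passed the threshold (log2 change -1.36, SE 0.21, adjusted p 6e-05, limma) and the change of 0.53 in depodded leaves did not (SE 0.21, adjusted p 0.051). The difference of 1.88 (SE 0.29, adjusted p 0.047, limma) lay at the threshold and was lost when 1 library was left out, with the exception of depodded day 45 replicate 3. It ranged from 1.76 to 1.97 over these 12 fits, with adjusted p from 0.025 to 0.26.

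The 8 genes called in opposite directions, 5 higher and 3 lower in depodded leaves, were named after their values were seen, and their number depended on the fit. It was 12 and 12 without depodded day 45 replicate 1, 16 and 5 without replicate 3 of that group, and 1 and 2 without depodded day 54 replicate 2. It was 3 and 2 without depodded day 45 replicate 2, 2 and 3 without depodded day 54 replicate 1, and 2 and 2 without control day 45 replicate 3. Without the initial libraries it was 19 and 11, with DESeq2 7 and 20, and with edgeR 3 and 11. Glyma.06G238500, Glyma.15G009900, Glyma.06G084200, Glyma.08G036600 and Glyma.02G140300 rose in depodded leaves and fell in controls. Glyma.08G036600 averaged 125 normalised counts on day 54 against 27.3 on day 45 in depodded leaves, and 3.89 against 26.8 in controls. Its log2 changes were 2.16 (SE 0.71) in depodded and -2.92 (SE 0.71) in control leaves. Glyma.06G084200 averaged 1220 on day 54 against 384 on day 45 in depodded leaves, and 171 against 679 in controls, with log2 changes of 2.15 and -2.17 (SE 0.76 each).

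Glyma.17G167800, Glyma.01G053800 and Glyma.17G021200 fell in depodded leaves and rose in controls. The changes of these 3 were smaller, from -1.17 to -0.94 in depodded leaves and from 0.9 to 1.09 in controls. In the test of the difference, the adjusted p of the 8 genes was 0.22 to 0.23 in limma, so the opposite directions of single genes did not pass over the whole table.

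Glyma.02G156800 was chosen with its values known. It had 186000, 238000 and 96400 normalised counts in depodded leaves on day 54, against 18800, 38300 and 307000 on day 45. Replicate 3 carried the day 45 mean, which was 121000 with it and 28500 without it. The change from day 45 to day 54 was 1.42 (SE 0.79, adjusted p 0.16, limma) and, without this replicate, 2.6 with an adjusted p of 0.0071. In controls the gene fell, to 866, 205 and 122 on day 54, against 2440, 1140 and 2110 on day 45 (log2 change -2.69, SE 0.79, adjusted p 0.014, limma). The difference of the changes, 4.11 (SE 1.11), did not pass the threshold in the main fit (adjusted p 0.24, limma).

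Genes with high levels were called in other proportions than the rest. Of 1522 genes whose mean level was 1000 or more, 362 rose and 239 fell in depodded leaves, where 17.7% of all genes rose and 18.7% fell. In controls 146 of them rose and 344 fell, where 12.4% of all genes rose and 14.9% fell. By level, the risen and fallen shares in depodded leaves were 23.7% and 16.3% at means of 1000 to 10000 and 25.7% and 4.29% at 10000 or more. In controls they were 9.64% and 22.9% at 1000 to 10000 and 8.57% and 15.7% at 10000 or more. Their median log2 change was 0.2 in depodded and -0.15 in control leaves, and the difference of the changes was positive for 68.4% of them, against 49.7% of all genes. Among the 70 genes whose mean was 10000 or more, 18 rose and 3 fell in depodded leaves, and 6 rose and 11 fell in controls. Depodded day 45 replicate 2 moves with this result: without it, 232 of the 1522 genes rose and 259 fell, so that the balance in depodded leaves turned. Without control day 45 replicate 1, 87 of them rose and 259 fell in controls. A fit of only the 6 depodded libraries called 228 higher and 204 lower. The mean that set the classes of level was taken over depodded and control libraries together. A gene high in depodded leaves only could thus enter them, so the classes are not independent of the calls. How much of the contrast between depodded and control leaves, the 68.4% included, comes from this choice of genes was not tested.

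**Figure D4:**
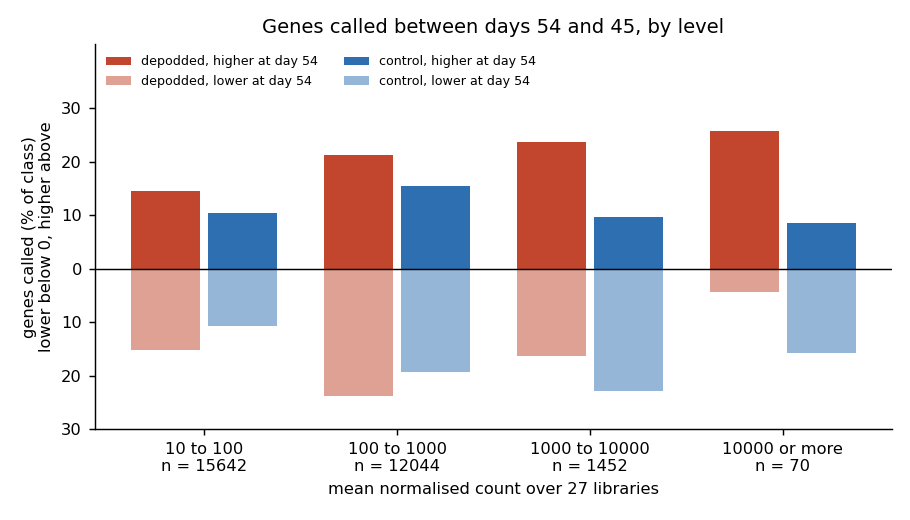
Percentage of genes called higher (above 0) and lower (below 0) on day 54 than on day 45, by mean normalised count over the 27 Williams 82 libraries, for depodded (left) and control (right) leaves. Above a mean of 1000 more genes were higher than lower in depodded leaves and more lower than higher in controls, and the balance in depodded leaves turned without day 45 replicate 2. The mean includes the libraries that called the genes, so the classes are not independent of the calls.

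The state of day 54 did not simply continue into the later samplings. The library titles carry a sampling number, 2 on day 45 and 3 on day 54. Among the later libraries, those numbered 4 are controls of day 64 and depodded leaves labelled day 76, and those numbered 5 are controls of day 76 and depodded leaves labelled day 64. For the depodded leaves the number and the day label thus conflict. By the day labels, the differences given below for depodded leaves, number 5 minus number 4, run from the later to the earlier day and would change sign if read as later minus earlier.

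In both kinds of plant, the genes that had changed by day 54 stood alike in number 4 and were nearer their initial levels in number 5. For the risen genes, the median level against the mean of the initial libraries was 0.82 to 1.02 (log2) in depodded libraries numbered 4 and 0.06 to 0.31 in those numbered 5. In controls it was 0.67 to 0.8 in number 4 and -0.09 to 0.1 in number 5, after 0.74 to 0.88 on day 54. For the fallen genes it was -1.23 to -1.03 in depodded libraries numbered 4 and -0.43 to -0.21 in number 5. In controls these genes stood at -1.11 to -0.91 in number 4 and -0.16 to 0.06 in number 5. The contrast that called the genes did not use these libraries, but they entered the filter on the mean and the spread of the shared fit, and a fit of only the 6 depodded libraries called 8393 genes in place of 10632.

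The test of number 5 against number 4 showed the same in each kind of plant. In depodded leaves, 4235 genes were higher (14.5%) and 3819 lower (13.1%) in number 5 than in number 4, together 27.6% of the genes tested. Of the risen genes, 2395 (46.2%) were lower in number 5 and 81 higher, with a median log2 change of -0.78. Among fallen genes the call was higher for 2412 (44.3%) and lower for 109, with a median of 0.78. The 81 became 46 without the library labelled day 64 replicate 3, 51 without that labelled day 76 replicate 3 and 52 without depodded day 54 replicate 2. The 109 became 59 and 71 without the libraries labelled day 76 replicates 2 and 3, and 69 without depodded day 54 replicate 3.

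In controls, 4657 genes were higher (15.9%) and 4978 lower (17.0%) in number 5 than in number 4, together 33.0% of the genes tested. Of the genes risen in depodded leaves, 2412 (46.5%) were lower and 64 higher there, with a median of -0.77. Among fallen genes the call was higher for 2631 (48.3%) and lower for 72, with a median of 0.86. Without control day 64 replicate 2, the 64 became 36 and the 72 became 45, and without depodded day 54 replicate 2 the 72 became 44. The depodded and the control comparison share no library with each other or with days 45 and 54. Both sets of genes therefore followed the sampling number in depodded and control plants alike. What else the samplings 3 and 4 had in common, and 2 and 5 had not, is not given in the labels, and its part in the change from day 45 to day 54 was not tested.

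Glyma.03G046400 showed this course in single libraries. It had 92, 85 and 120 normalised counts in depodded libraries numbered 4 and 931, 887 and 855 in those numbered 5. Controls numbered 4 had 78, 43.6 and 65.5, those numbered 5 had 747, 958 and 746, and the initial libraries 1240, 1280 and 1210. Low libraries were thus those numbered 3 and 4 and high ones all others, with no overlap. Glyma.05G186700 behaved otherwise. Depodded libraries numbered 4 had 11.5, 55.9 and 27.6, and those numbered 5 had 3.69, 5.56 and 3.27. The latter lay at or under the floor, and number 5 minus number 4 did not pass the threshold (-2.43, SE 1, adjusted p 0.075, limma). Controls numbered 4 had 19.2, 7.93 and 39.9, and those numbered 5 had 211, 1220 and 80.9. This rise in controls passed the threshold (log2 change 3.83, SE 1, adjusted p 0.0054, limma). The initial libraries had 3.97, 88.4 and 14.9, all below the depodded libraries of day 45.

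**Figure D5:**
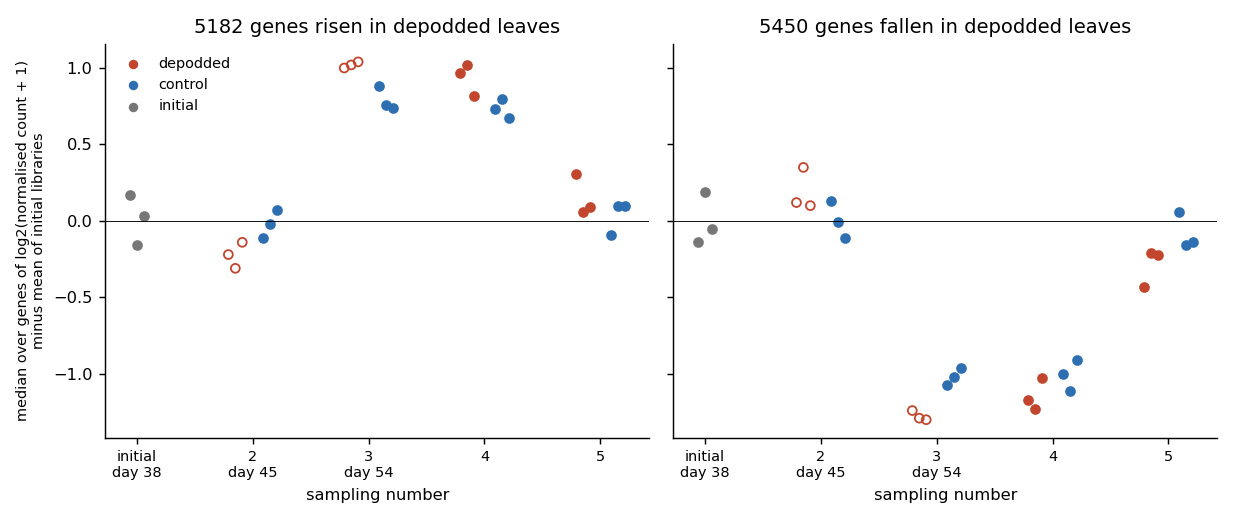
Median over the 5182 risen (left) and 5450 fallen (right) genes of log2(normalised count + 1) less the mean of the initial libraries, for each Williams 82 library by sampling number; number 4 is control day 64 and depodded labelled day 76, number 5 control day 76 and depodded labelled day 64. Open circles are the depodded libraries of days 45 and 54, whose difference called the genes; the filled points are libraries outside that contrast, which entered the filter and the shared spread, and they lie away from 0 in numbers 3 and 4 and nearer 0 in number 5 for both kinds of plant.

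As an average of both numbers, the later depodded leaves still differed from the initial ones. Of all genes, 5714 (19.6%) were higher and 6122 (21.0%) lower in later depodded leaves than in initial leaves, 40.5% together. Of the risen genes, 2224 (42.9%) were higher and 355 lower, with a median of 0.54, and of the fallen genes, 2731 (50.1%) were lower and 159 higher, with a median of -0.73. The smaller counts rest on single libraries: the 355 became 196 without depodded day 45 replicate 2, 216 without depodded day 54 replicate 3, 202 with replicate 1 of the initial group left out and 602 with its replicate 2 left out. The 159 became 95 without depodded day 54 replicate 3, 95 when the initial group lacked replicate 1 and 288 when it lacked replicate 2. This average joins libraries that stand far apart for these genes, and it does not depend on which of them is day 64.

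The same IDs were followed in leaves of sterile plants of line T295H, where the sink is limited genetically and the samplings lie further apart. There, 11.6% of 29370 genes were higher and 13.8% lower on day 63 than on day 35. Of 5090 risen genes tested in that line, 361 (7.09%) were higher and 1152 (22.6%) lower in sterile leaves on day 63. Among 5078 fallen genes the call was higher for 856 (16.9%) and lower for 402 (7.92%). Without sterile day 35 replicate 3 the 361 became 200 and the 402 became 217, and without sterile day 35 replicate 1 they became 239 and 258. Without sterile day 63 replicate 2 the 402 became 256. The median log2 changes were -0.17 for the risen and 0.17 for the fallen genes, so the tendency was small and opposite to that of depodded leaves from day 45 to day 54. Glyma.12G028300 and Glyma.06G174700, the most risen genes, were lower in sterile leaves on day 63 (log2 changes -1.77, SE 0.38, and -2.66, SE 0.93; adjusted p 0.0032 and 0.048, limma).

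The risen and fallen genes were spread over the genome. Soybean gene IDs carry the chromosome number and a running number along it, and 29051 of the tested genes have both. The share of risen genes ran from 14.8% on chromosome 17 to 20.5% on chromosome 12, and that of fallen genes from 14.7% on chromosome 3 to 21.1% on chromosome 17. The next tested gene along the chromosome had also risen for 20.6% of the risen genes, where 17.7% of all next genes had. It had also fallen for 22.1% of the fallen genes, where 18.7% of all next genes had. Runs of neighbours were short, at most 5 risen or 7 fallen genes in a row. Neighbouring copies of a gene could share reads, which the files do not allow to be checked.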

How the data were processed

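The authors deposited 1 table of normalised counts (a signal per gene and library) per line, per the file headers and values. Each column holds whole multiples of 1 step, as counts divided by a size factor give, and dividing by it recovered whole counts within 0.01 for 100% of values. Of the counts above 0, 98.8% to 99.2% were even, so floors and intervals use pairs of counts. Bowtie2 and DESeq2 are listed in the submitters' processing notes; build, annotation, counter and strand use were not given in the sources used here. Of 39557 IDs, 0 matched the 59048 RefSeq genes of assembly Glycine_max_v4.0, so the 30 lists by product name were not applied.

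The main test was limma 3.58.1 (R 4.3.3), applied to log2(normalised count + 1) and two-sided, with all 27 Williams 82 libraries in 1 fit with a mean per group, and the 15 T295H libraries in another. The tables were normalised separately and every test stayed within one. Alternatives used edgeR 4.0.16 and DESeq2 1.42.0 on recovered counts and the settings in the closing section. Fits were tested on simulated data. Named genes are, per direction, the 2 called genes with the largest change whose higher group averaged 50 or more and whose libraries did not overlap. Members, lists and comparisons were chosen with earlier results of these data known, and the comparisons of sampling numbers and the count of abundant genes were added after seeing the values. Whether replicates are separate plants is not in the labels; p-values therefore reflect only spread between libraries, possibly technical. No replicates of a group agreed within sampling noise (chi-square over degrees of freedom, in pairs of counts, at least 3.09). Library totals of recovered counts were 6663477 to 13166094 (Williams 82) and 5471456 to 11877733 (T295H).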

Additional observations from a re-analysis of the deposited data

Results flagged for a closer look

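The test of whether the change from day 45 to day 54 differed between depodded and control leaves called 1 gene, a difference between groups of plants under the same contrast. That gene, Glyma.05G218800, had a log2 change that was more positive by 1.88 (SE 0.29, adjusted p 0.047, limma) in depodded than in control leaves. This call lay at the threshold. It was lost under some settings and in most fits with 1 library left out.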

How the results depend on the processing

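The number of genes called in depodded leaves, 10632, was 8393 to 11609 over the other settings and 8486 to 9769 with 1 library left out. The difference of the changes called 1 gene; it called 0 with a pseudocount of 5, with no filter on low values, in the fit of only the groups compared and with the replicate block, 10 without the initial libraries, 193 with DESeq2, and 0 to 4 with 1 library left out, 4 without depodded day 45 replicate 3. Glyma.05G218800 kept a difference of 1.84 to 1.89 with adjusted p from 1.5e-05 to 0.18 over the settings that kept all its libraries. The count of risen genes higher in later depodded than initial leaves, 2224, was 1432 in the fit of only the groups compared and 1786 to 2192 with 1 library left out. Abundant genes higher in depodded leaves, 362, were 228 in the fit of only the groups compared and 232 to 396 with 1 library left out. Genes called between sterile leaves of day 63 and day 35, 7474, were 4842 to 6542 with 1 library left out, the lowest without day 35 replicate 3. The cause of these shifts was not tested. Same-numbered replicates of depodded days 54 and 45 did not deviate together (r of -0.0742, 0.0205 and -0.155). Between same-numbered depodded and control libraries, r was 0.0415, 0.0751 and 0.248 on day 54. On day 45 it was -0.101, -0.181 and -0.186. With 3 replicates per group, these values cannot exclude a pairing by number. With the replicate block, 10458 genes were called in depodded and 7863 in control leaves. Under every setting that tested them, the genes named for depodded leaves by the rule, and Glyma.03G046400, kept their calls there. Those named for controls kept theirs in controls. The risen genes named for depodded leaves were not tested under the filter of a mean of at least 50. Glyma.02G156800 passed the threshold (2.6, adjusted p 0.0071) without depodded day 45 replicate 3. The changes of named genes in the other kind of plant, and those of the 8 opposite genes, were not rerun gene by gene. Depth limits genes near the floor of 4.84 to 7.68 normalised counts in the 6 depodded libraries.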
